A study of Mus musculus with 18 samples.

Results

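The peroxiredoxin and thioredoxin genes described here are 10 genes chosen by symbol, out of 14002 genes listed in any library: Prdx1, Prdx2, Prdx3, Prdx4, Prdx5, Prdx6, Txn1, Txnrd1, Gpx1 and Gpx4. All 10 had reads in each of the 18 libraries and passed every low-count filter. The libraries came from RAW264.7 cells, a mouse macrophage-like cell line, given 200 µM 4-thiouridine (4sU), which cells build into new RNA in place of uridine and which shows as a T-to-C conversion in the reads after chemical treatment. Each of 9 lysates, made in cycloheximide, gave 1 ribosome footprint library, from RNase I digested monosomes, and 1 input library, from about 10% of the cytoplasmic lysate, fragmented by alkali. Experiment 1 had 6 lysates, with 0 (no 4sU), 20, 40, 60, 90 and 120 min of 4sU, and experiment 2 had 3, with 20, 30 and 40 min. Whether lysates are separate cultures is not stated in the labels, so each p-value speaks only of the spread among these samples, and that spread may be technical.

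Peroxiredoxins reduce hydrogen peroxide with a reactive cysteine, and the disulfide that forms in the typical members is reduced again by thioredoxin. Thioredoxin in turn takes its electrons from NADPH through thioredoxin reductase, while glutathione peroxidases do the parallel work with glutathione. Thioredoxin reductase and the glutathione peroxidases Gpx1 and Gpx4 are selenoproteins, in which a UGA codon that elsewhere stops translation is read as selenocysteine. Macrophages make superoxide and hydrogen peroxide on purpose, through the phagocyte NADPH oxidase, and carry these enzymes in their cytosol and organelles.

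The codons on which these enzymes act are shown because they set the selenoenzymes apart from the cysteine enzymes. Each line gives coding sequence of the GENCODE M21 transcript on GRCm38, 5′ to 3′, with the selenocysteine TGA in capitals in the first 3 lines and the codon of the reactive cysteine in capitals in the other lines.
Gpx1: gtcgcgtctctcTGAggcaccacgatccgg
Gpx4: gtggcctcgcaaTGAggcaaaactgacgta
Txnrd1: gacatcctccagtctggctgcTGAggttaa
Prdx1: tttacttttgtgTGTcccacggagatcatt
Prdx2: ttcacttttgttTGCcccacggagatcatc
Prdx3: ttcacatttgtgTGTcctacagaaattgtt
Prdx4: ttcacctttgtgTGTccaactgaaatcatc
Txn1: tctgctacgtggTGTggaccttgcaaaatg

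The TGA of Gpx1 is codon 47 of 201 (chr9:108339451-108339453, plus strand) and that of Gpx4 is codon 73 of 197 (chr10:80054737-80054739, plus strand), so 76.6% and 62.9% of their coding codons lie after it. In Txnrd1 the TGA is codon 498 of 499 (chr10:82896037-82896039, plus strand), with 1 codon after it. The cysteine codons are number 52 in Prdx1 (chr4:116691823-116691825, plus strand), 51 in Prdx2 (chr8:84970483-84970485, plus strand), 109 in Prdx3 (chr19:60870127-60870129, minus strand), 127 in Prdx4 (chrX:155332460-155332462, minus strand) and 32 in Txn1 (chr4:57951830-57951832, minus strand). Between any 2 of the 4 peroxiredoxin windows, 21 to 26 of 30 bases were identical, the fewest between Prdx2 and Prdx3 and the most between Prdx1 and Prdx2.

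Footprint depth in reads per library was 11771175 to 23327760 in experiment 1 and 29065324 to 87536081 in experiment 2. Input depth ran from 6230562 to 7933796 and from 26359243 to 48139330. Of footprint reads, 0.298% to 5.54% in experiment 1 and 0.313% to 0.872% in experiment 2 had at least 1 conversion. In input the shares were 0.289% to 8.07% and 0.813% to 1.99%. All 10 macrophage markers on a list of 10 were listed, with a summed level of 10086 to 13401 CPM (reads scaled to the library total) in footprints and 6731 to 8482 CPM in input. Lyz2 was the largest part, with a median of 7632 CPM in footprints and 4282 CPM in input. Itgam was low, at a median of 3.99 and 2.76 CPM, and Adgre1 was at 36.6 and 55.7 CPM. Of 20 markers of T cells, B cells, fibroblasts, epithelium and erythroid cells, 4 were listed (Cd4, Cd79a, Cd79b and Krt8). Their summed level was at most 2.27 CPM in footprints and 1.40 CPM in input. The rest, Cd3e, Col1a1, Epcam and Hba-a1 among them, were not listed in any library. Whether these had no reads or were not counted is not stated.

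Txn1, the thioredoxin that reduces the cytosolic peroxiredoxins, had the highest level per length in both materials. In CPM per kilobase of coding sequence it stood at 3941 ± 483 in footprints and 1355 ± 175 in input (SD, n = 9 each). Prdx1, the abundant cytosolic peroxiredoxin, came next, at 3177 ± 395 in footprints and 1253 ± 171 in input, and its range overlapped that of Txn1 in both. Txnrd1 was lowest, at 79.6 ± 5.31 in footprints and 126 ± 8.23 in input.

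Gpx1 held the seventh place in footprints, at 132 ± 33.7 CPM per kilobase of coding sequence, and the third in input, at 680 ± 193. In footprints the order after Prdx1 was Prdx2 (456), Prdx4 (362), Prdx6 (298), Prdx3 (243), Gpx1, Gpx4 (121), Prdx5 (116) and Txnrd1. In input the order after Gpx1 was Gpx4 (319), Prdx4 (293), Prdx2 (269), Prdx6 (200.3), Prdx3 (171), Prdx5 (144) and Txnrd1. Neighbours in these orders had overlapping ranges over libraries, except Prdx1 against Prdx2 and Prdx5 against Txnrd1 in footprints, and Prdx1 against Gpx1 in input. Per kilobase of whole transcript the first place in both materials and the last stayed with Txn1 and Txnrd1, and several genes between them changed places: Gpx1 was then ninth in footprints and second in input. In input by this measure Txn1 (mean 406, range 343 to 503) and Gpx1 (mean 383, range 232 to 531) overlapped.

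**Figure D1:**
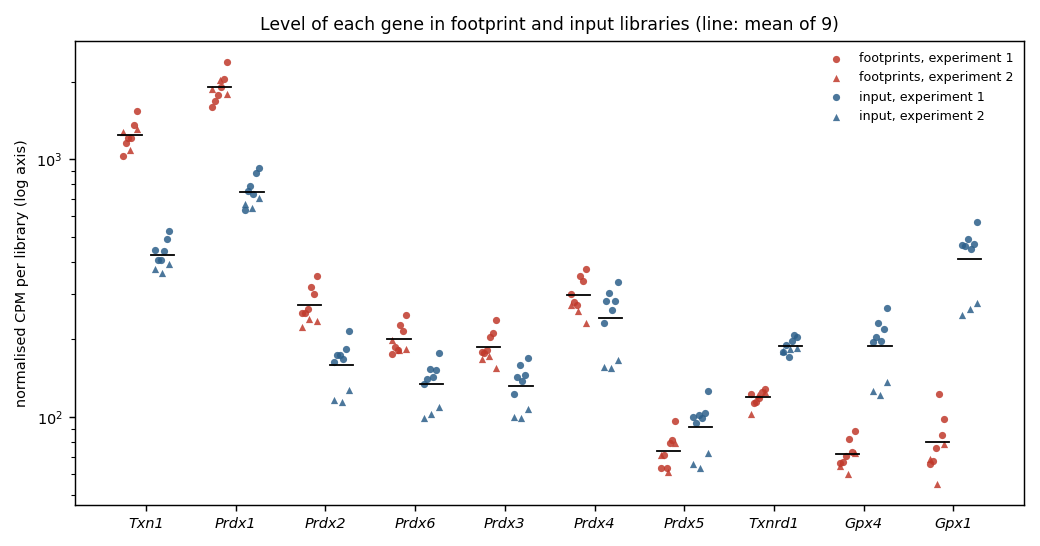
Normalised CPM (log axis, not per length) of the 10 genes in each library, footprints left of input, with circles for experiment 1, triangles for experiment 2 and a line at the mean of 9 libraries. Footprint points of Txn1 and Prdx1 lie above all of their input points, and those of Gpx1, Gpx4 and Txnrd1 lie below all of theirs.

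The sources used here do not say which region was counted for each gene, but the T content of the reads bears on it. Reads of Prdx6 carried 7.11 ± 0.182 T in footprints and 7.04 ± 0.156 T in input (SD, n = 9 each), where 30 bases of its coding sequence hold 6.88 T and 30 bases of its 3′ UTR hold 9.40. Txnrd1 reads carried 6.32 ± 0.184 T in footprints and 6.37 ± 0.141 T in input, against 6.61 per 30 bases of coding sequence and 8.77 of 3′ UTR. In both genes the input reads were thus as low in T as the footprints, and nearer to the coding value than to the UTR value. They were also nearer to it than to the whole transcript, at 8.52 T per 30 bases in Prdx6 and 7.43 in Txnrd1. In these and in Prdx1, Prdx2, Prdx3, Prdx4 and Gpx4 the means of the 2 materials differed by less than the SD of the footprints, and in Gpx1, Prdx5 and Txn1 they differed by more. Reads of Gpx1 carried 6.90 ± 0.162 T in footprints and 6.22 ± 0.0831 T in input, with no overlap between libraries, against 6.52 per 30 bases of coding sequence and 8.26 of 3′ UTR. Prdx5 had 7.46 ± 0.201 T in footprints and 6.95 ± 0.137 T in input, against 7.37 per 30 bases of coding sequence and 7.23 of whole transcript. Txn1 had 8.05 ± 0.226 T in footprints and 8.34 ± 0.121 T in input, against 7.81 of coding sequence and 8.16 of whole transcript. Prdx2 had 7.44 T in footprints and 7.43 T in input, against 6.87 and 7.80. Reads of Txn1 and Prdx2 were thus nearer to the whole transcript in both materials. Which region was counted was not tested.

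The first comparison asks how densely ribosomes sit on each mRNA, as the ratio of footprints to input. The 10 genes lay far apart: thioredoxin and 5 of the 6 peroxiredoxins had more footprints than input, and Prdx5 and all 3 selenoenzymes had fewer. At an adjusted p under 0.05 (edgeR quasi-likelihood test, Benjamini-Hochberg over 10592 genes), 6 of the 10 were higher and 4 lower, where 35.2% of all genes were higher and 40.3% lower. The median over the 10 was 0.42 on the log2 scale, against -0.04 over all genes.

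Txn1 stood at 1030 (lowest), 1211 (median) and 1539 (highest) normalised CPM in footprints, against 360, 406 and 529 CPM in input. Its 2 groups did not overlap, and its log2 ratio of 1.54 (SE 0.07, adjusted p = 1.1e-11) was above that of 96.7% of genes. Prdx1 stood at 1591, 1872 and 2384 CPM in footprints, against 633, 731 and 928 CPM in input. It did not overlap either, with a log2 ratio of 1.34 (SE 0.07, adjusted p = 4.9e-11), above 95.5% of genes.

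Prdx2, the second cytosolic peroxiredoxin, stood at 222, 253 and 353 CPM in footprints, against 114, 168 and 215 CPM in input, with a log2 ratio of 0.77 (SE 0.09, adjusted p = 1.0e-06). The lowest footprint library of Prdx2 was above the highest input library. Prdx6, the peroxiredoxin that works with a single cysteine, had a log2 ratio of 0.58 (SE 0.09, adjusted p = 1.3e-05), and the mitochondrial Prdx3 one of 0.52 (SE 0.09, adjusted p = 7.8e-05). Both ratios were above 0 in 9 of 9 lysates.

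Prdx4, the peroxiredoxin of the endoplasmic reticulum, was the weakest of the higher genes, with a log2 ratio of 0.32 (SE 0.13, adjusted p = 0.0315) and 7 of 9 lysates above 0. Within experiment 2 alone it was 0.66 (adjusted p = 1.3e-04), and within experiment 1 alone 0.17 (adjusted p = 0.0726). The call was also lost without the 0 min (adjusted p = 0.0565), 60 min (0.0628) or 30 min (0.0807) lysate. Prdx5, found in mitochondria and peroxisomes, was the one peroxiredoxin below input, at -0.29 (SE 0.09, adjusted p = 0.0097), with 2 of 9 lysates above 0. Both of these came from experiment 2: its log2 ratio was 0.05 (adjusted p = 0.643) in that experiment alone and -0.48 (adjusted p = 3.6e-05) in experiment 1 alone.

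Among the selenoenzymes, Gpx1, the cytosolic glutathione peroxidase, stood at 55.2, 76.2 and 123 CPM in footprints, against 248, 462 and 569 CPM in input. Every footprint library was below every input library, and the log2 ratio was -2.37 (SE 0.14, adjusted p = 3.4e-10), with 3.21% of genes lower. Gpx4, which reduces lipid hydroperoxides, stood at 60.1, 70.4 and 88.1 CPM in footprints, against 122, 197 and 264 CPM in input. Its groups did not overlap, at a log2 ratio of -1.37 (SE 0.11, adjusted p = 1.6e-08). Txnrd1, the NADPH-dependent reductase of thioredoxin, stood at 103, 122 and 128 CPM in footprints, against 171, 185 and 209 CPM in input. It did not overlap, at -0.66 (SE 0.06, adjusted p = 3.7e-08), and had the smallest spread over lysates of the 10 genes (SD 0.10 of the log2 ratio, against 0.16 to 0.41 in the others).

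**Figure D2:**
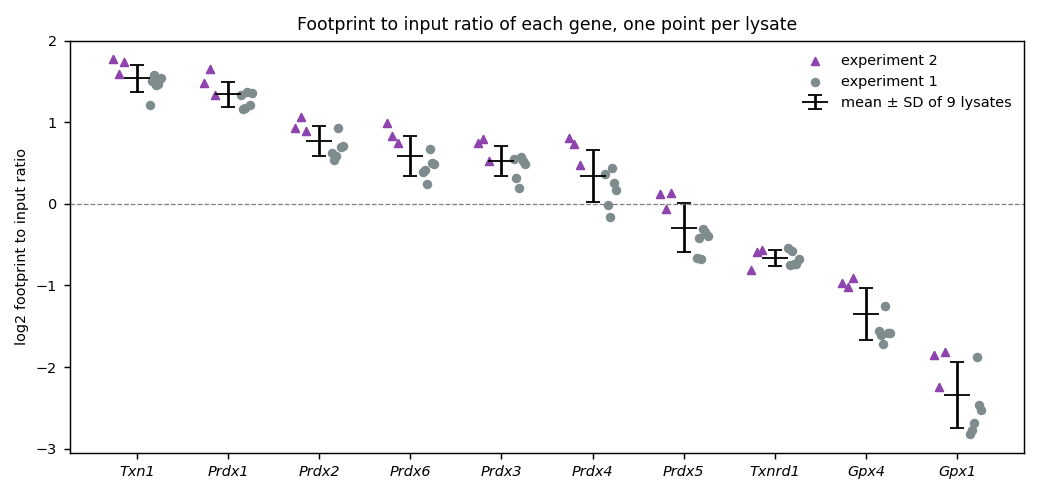
Log2 footprint to input ratio of the 10 genes, 1 point per lysate (triangles for experiment 2, circles for experiment 1) with mean ± SD over 9 lysates. The genes run from Txn1, between 1.21 and 1.77, to Gpx1, between -2.82 and -1.82, and the experiment 2 points of Gpx4, Prdx5, Prdx4 and Prdx6 lie above their experiment 1 points.

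Ranked by this ratio the genes ran Txn1, Prdx1, Prdx2, Prdx6, Prdx3, Prdx4, Prdx5, Txnrd1, Gpx4 and Gpx1, and 8 of the 9 neighbouring pairs differed (exact two-sided sign-flip test over 9 lysates, adjusted over the 9 pairs). Prdx6 and Prdx3 did not pass: Prdx6 was higher by 0.06 ± 0.13 (SD, n = 9) on the log2 scale, in 7 of 9 lysates, with an exact adjusted p of 0.164. The smallest passing gap, Prdx3 over Prdx4, was 0.18 ± 0.15, in 8 of 9 lysates, at an exact adjusted p of 0.0176. The largest was Gpx4 over Gpx1, at 0.99 ± 0.20, in 9 of 9 lysates and at an exact adjusted p of 0.0088, from the smallest exact p that 9 lysates allow. The ratio depends on the same region being counted in both materials, and the part of the T contents of Gpx1, Prdx5 and Txn1, which differed between the materials, in their ratios was not tested.

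Several annotated genes lie over or resemble these. Prdx2 overlaps Rnaseh2a and Junb and Prdx5 overlaps Trmt112, each on the other strand, and Txnrd1 overlaps Eid3 on its own strand. Prdx2, Prdx6, Txn1 and Gpx4 have annotated copies (Prdx2-rs3, Prdx6-ps2 and Prdx6b, Txn-ps1, Gpx4-ps2). The sources used here give neither the strand setting nor the treatment of reads with several matches, so the values of these genes are uncertain to that extent.

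The experiments could be compared at 20 and 40 min, the times both hold. For 5 of the 10 genes the log2 ratio was higher in experiment 2 than in experiment 1 and for none was it lower (edgeR quasi-likelihood test of experiment by material over 8 libraries, adjusted over 10589 genes), where 8.1% of all genes were higher and 13.6% lower. Gpx1 stood at -1.86 and -1.82 in experiment 2, against -2.77 and -2.69 in experiment 1, a difference of 0.81 (SE 0.12, adjusted p = 0.0017). Gpx4 stood at -0.97 and -0.91 in experiment 2, against -1.61 and -1.72 in experiment 1, a difference of 0.65 (SE 0.12, adjusted p = 0.0060). In both genes the experiments did not overlap at these times, and the ratios were below 0 in each.

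Prdx4 stood at 0.80 and 0.48 in experiment 2, against -0.01 and -0.16 in experiment 1 (difference 0.65, SE 0.14, adjusted p = 0.0105). Prdx5 stood at 0.12 and 0.14, against -0.42 and -0.68 (difference 0.59, SE 0.15, adjusted p = 0.0187), and Prdx6 at 1.00 and 0.75, against 0.42 and 0.24 (difference 0.46, SE 0.13, adjusted p = 0.0343). At these times Prdx4 and Prdx5 were above 0 in experiment 2 and below 0 in experiment 1, although over all times 4 of the 6 lysates of experiment 1 were above 0 in Prdx4. The difference was 0.31 in Prdx3, 0.27 in Prdx2, 0.17 in Prdx1, 0.13 in Txn1 and -0.10 in Txnrd1, none past the threshold.

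Input CPM of experiment 2 lay wholly below that of experiment 1 in 8 of the 10 genes, all but Prdx1 and Txnrd1. Footprint CPM did so in Prdx2 and Prdx3 only. The share of all genes with such a gap was not counted, so these counts do not set the 10 genes apart. Gpx1 had 55.2 to 78.5 CPM in the footprint libraries of experiment 2, against 65.8 to 123 CPM in those of experiment 1, and its input had 248, 262 and 276 CPM in experiment 2, against 450 to 569 CPM in experiment 1. The footprints of Gpx4 were at 60.1 to 72.7 CPM in experiment 2, against 66.5 to 88.1 CPM in experiment 1, and its input was at 122 to 136 CPM in experiment 2, against 195 to 264 CPM in experiment 1. In input Prdx4 had 155 to 166 CPM in experiment 2, against 232 to 333 CPM in experiment 1, Prdx5 had 63.7 to 72.3 CPM, against 95.1 to 127 CPM, and Prdx6 had 99.2 to 109 CPM, against 135 to 177 CPM. Experiment 2 also held more reads per library, and the part of depth or of any other difference between the experiments in these values was not tested.

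Because the 3 selenoenzymes were all below input but far apart, the place of the TGA was set beside the ratio. This description, made after the ratios had been seen, took the mouse genes that GENCODE M21 annotates as selenoproteins, with chromosome 18 left out. Of 24 such genes 17 were tested. Across the 17, the share of codons that lie after the first TGA and the log2 ratio had a Pearson r of -0.71 and a Spearman rho of -0.59. The 17 include Gpx1, Gpx4 and Txnrd1, whose ratios prompted the description, and neither value was computed without them. The points are genes measured in the same 18 libraries, not replicates.

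Where at least 50% of the codons follow the TGA, 6 of 7 genes were below input and none above, with a median log2 ratio of -1.37, where 40.3% of all genes were below and 35.2% above. Gpx1 and Gpx4, whose ratios prompted the description, are among the 7, and 4 of the other 5 were below. The median is the value of Gpx4 itself. Sephs2, which makes the selenium donor and is itself a selenoprotein, was lowest, at -3.05 (SE 0.13) with 86.1% of its codons after the TGA. Gpx1, Gpx4, Selenot (-1.32, SE 0.10), Selenom (-0.78, SE 0.13) and Selenop (-2.43, SE 0.43, with a mean of only 3.78 reads) were also below. Selenow was the exception, at 0.15 (SE 0.14, adjusted p = 0.351) with 85.2% of its codons after the TGA.

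Where fewer codons follow the TGA, 4 of 10 genes were below input and 5 above, with a median of 0.25. Txnrd1 was thus unlike its mitochondrial relative Txnrd2, whose TGA is also the codon before the last and whose ratio was 0.50 (SE 0.10), and closer to Txnrd3, at -0.47 (SE 0.10). Selenoo, with 2 codons after the TGA, stood at -0.75 (SE 0.10), near Txnrd1, and Selenof, with 42.6% of its codons after the TGA, at -0.81 (SE 0.13). A late TGA therefore went with ratios on both sides of 0.

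**Figure D3:**
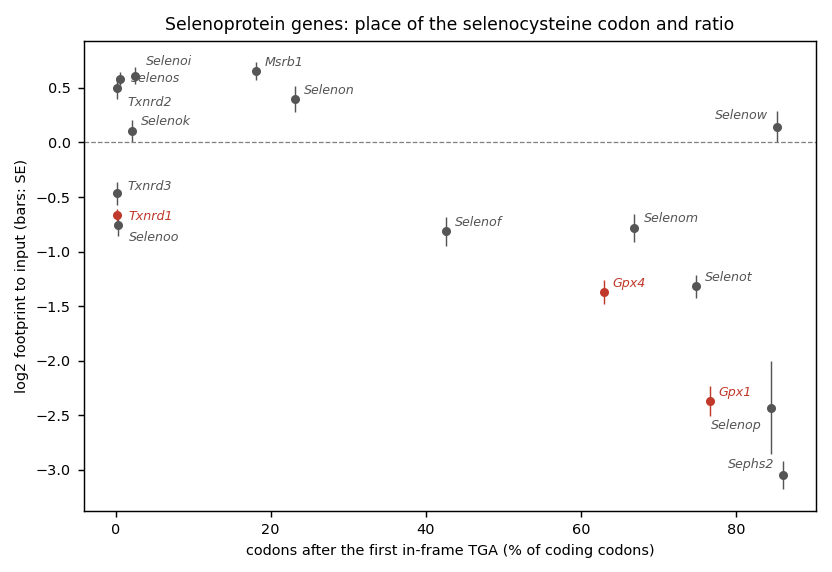
Log2 footprint to input ratio (bars: SE) against the share of coding codons after the first in-frame TGA for 17 selenoprotein genes, with Gpx1, Gpx4 and Txnrd1 in red. Gpx1 and Gpx4 lie in the lower right with Sephs2 and Selenot, Selenow lies at the upper right near 0, and Txnrd1 lies at the left among genes on both sides of 0.

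The levels of the genes were then followed over the time of labelling. In bulk lysates fewer cells with an mRNA and less of it per cell cannot be told apart. In footprints, 6 of the 10 genes rose with hours of 4sU and none fell (edgeR quasi-likelihood test over 9 libraries, adjusted over 10226 genes), where 7.13% of all genes rose and 13.5% fell. These were Prdx1, Prdx2, Prdx3, Prdx5, Prdx6 and Txn1, and the slopes were small, from 0.22 to 0.29 log2 units per hour. The median slope over the 10 was 0.23, against 0.00 over all genes.

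Prdx1 footprints in experiment 1 stood at 1591 CPM at 0 min, 1674 at 20 min, 1777 at 40 min, 1897 at 60 min, 2046 at 90 min and 2384 at 120 min. In experiment 2 they stood at 1872 CPM at 20 min, 2029 at 30 min and 1796 at 40 min. Within experiment 1 each later library of Prdx1 was above the one before it, and the slope over both experiments was 0.23 per hour (SE 0.06, adjusted p = 0.0250). Txn1 footprints in experiment 1 stood at 1030, 1154, 1207, 1211, 1361 and 1539 CPM over the same 6 times. They were highest at 120 min too, and the slope was 0.22 per hour (SE 0.06, adjusted p = 0.0263).

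Prdx2 had a footprint slope of 0.29 (SE 0.07, adjusted p = 0.0184), Prdx5 one of 0.27 (SE 0.07, adjusted p = 0.0241), Prdx3 one of 0.24 (SE 0.07, adjusted p = 0.0284) and Prdx6 one of 0.23 (SE 0.07, adjusted p = 0.0292). Gpx4 (0.21, adjusted p = 0.0536), Prdx4 (0.23, adjusted p = 0.0780), Gpx1 (0.36, adjusted p = 0.0741) and Txnrd1 (0.06, adjusted p = 0.503) did not pass. These 6 calls rested on single lysates of experiment 1: without the 120 min lysate none of the 10 genes passed, although the slope of Prdx1 was still 0.19 (adjusted p = 0.375), without the 90 min lysate 1 passed (Prdx2) and without the 20 min lysate 2 passed (Prdx2 and Prdx5). With no low-count filter 1 gene passed. The shares of all genes in these alternative fits were not counted.

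In input only Prdx1 rose, at 0.26 per hour (SE 0.06, adjusted p = 0.0391, over 9927 genes), where 0.413% of all genes rose and 5.83% fell. Its input stood at 633, 750, 789, 731, 880 and 928 CPM over the 6 times of experiment 1, and at 668, 647 and 709 CPM at 20, 30 and 40 min of experiment 2. The 90 and 120 min libraries were the highest. The call was lost without any of the lysates but the 40 min lysate of experiment 1, with adjusted p up to 0.411 without the 120 min lysate, while the slope stayed between 0.25 and 0.28. With experiment as a replicate block 3 genes rose in input, namely Prdx1 (0.25, adjusted p = 0.0082), Prdx2 (0.17, adjusted p = 0.0458) and Prdx6 (0.17, adjusted p = 0.0417). The shares of all genes above belong to the fit without the block, and those with it were not counted. The block lowered the input slopes of 7 genes by over 1.5 times: with it and without it the slope was 0.12 and 0.29 in Gpx1, 0.18 and 0.34 in Prdx4, 0.18 and 0.32 in Gpx4, 0.17 and 0.29 in Prdx5, 0.17 and 0.28 in Prdx2, 0.17 and 0.27 in Prdx3, and 0.17 and 0.27 in Prdx6. Experiment 2, which holds short times only, had the lower input in these 7 genes.

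**Figure D4:**
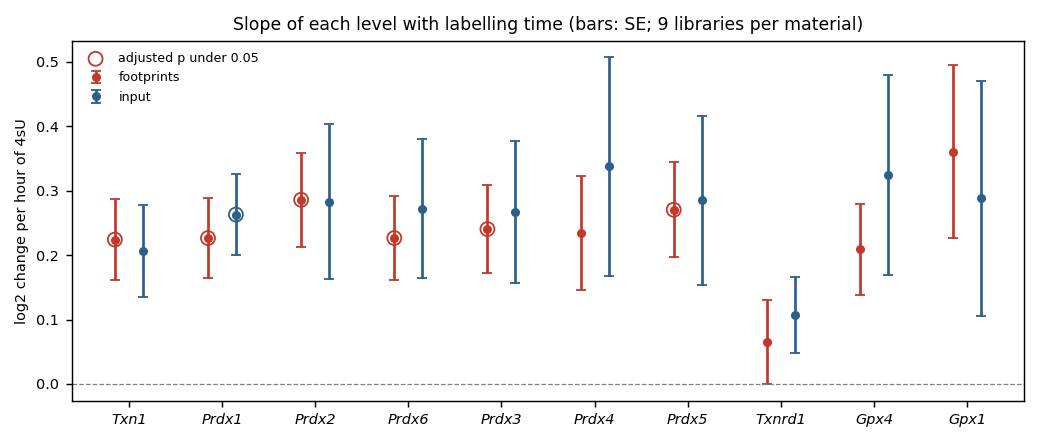
Log2 change per hour of 4sU in the level of each gene (bars: SE, 9 libraries per material, no term for experiment), footprints left of input, with a ring around slopes at an adjusted p under 0.05. All 20 slopes lie above 0, the input slopes of 7 genes being smaller with a replicate block for experiment, 6 footprint slopes and the input slope of Prdx1 carry a ring, and the bars of the 2 materials overlap in every gene.

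The ratio of footprints to input did not change detectably with labelling time in any of the 10 genes, and in no gene at all at an adjusted p under 0.05 (edgeR quasi-likelihood test of material by hours, 0% of 10592 genes called). At an unadjusted p under 0.05 there were 254 genes, none of the 10 among them, and DESeq2's Wald test called none of the 10. That is fewer genes than chance alone would mark at this threshold. The fit had no term for experiment or lysate, so differences between the experiments entered its spread. The lack of calls does not show that the ratios stayed constant. The change per hour was between -0.11 (Gpx4, SE 0.19) and 0.08 (Gpx1, SE 0.25), and 0.02 in Txn1 (SE 0.11).

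How fast each mRNA was replaced by labelled copies was read from the converted share of its input reads. On the log2 odds scale, after subtraction of the library median, 5 of the 10 genes were below and 1 above (limma over 8 labelled lysates, adjusted over 7045 genes), where 35.1% of all genes were below and 35.2% above. The median over the 10 was -0.52, against -0.03 over all genes.

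Gpx4 had 0.265% converted reads in input at 20 min of experiment 1, 0.674% at 40 min, 1.31% at 60 min, 1.80% at 90 min and 3.67% at 120 min, from 4 to 60 converted reads. The unlabelled input had 0.143%, from 2 converted reads. Gpx4 was below the median gene in 8 of 8 lysates, by 0.56 to 1.69, and on average at -1.25 (SE 0.18, adjusted p = 1.9e-05). Prdx2 had 0.542%, 0.731%, 0.698%, 2.67% and 2.70% over the same 5 times, was also below in 8 of 8 lysates, and averaged -1.28 (SE 0.23, adjusted p = 1.8e-04).

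Prdx4 averaged -1.08 (SE 0.22, adjusted p = 4.3e-04) and Prdx3 -1.06 (SE 0.24, adjusted p = 0.0013), each below the median gene in 7 of 8 lysates. Txn1 averaged -0.59 (SE 0.19, adjusted p = 0.0102) and was below in 7 of 8 lysates. At 120 min its input had 4.18% converted reads, with a 95% Wilson interval that covers counting error only, drawn in the plot of converted shares. Prdx5 (-0.45, adjusted p = 0.147), Prdx1 (-0.33, adjusted p = 0.0769), Prdx6 (-0.30, adjusted p = 0.233) and Gpx1 (-0.28, adjusted p = 0.165) did not pass. Without the 20 min lysate of experiment 2, 8 genes were below, Prdx1, Prdx6 and Gpx1 with them. The share of all genes below in that fit was not counted.

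Prdx5, Prdx1, Prdx6 and Gpx1 lay above the median gene in 3 of 8 lysates each and below it in 5. Prdx1 stood at 0.30 at 20 min of experiment 1 and at -1.05 at 120 min, and Gpx1 at 0.51 and -0.92. No correction for the unlabelled share was made in these values, and with it subtracted Gpx1 was below (-0.48, adjusted p = 0.0273), as was Prdx5 (-0.78, adjusted p = 0.0492). Counted as conversions per T position, Prdx1 was below (-0.60, adjusted p = 0.0021), and its input reads were the richest in T of the 10 genes, at 8.69 ± 0.113 per read (SD, n = 9).

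Txnrd1 was the one gene above the median, at 0.44 (SE 0.15, adjusted p = 0.0196), higher in 6 of 8 lysates. Its input had 0.998%, 1.66%, 4.99%, 5.49% and 13.5% converted reads at 20, 40, 60, 90 and 120 min of experiment 1. Its unlabelled footprints had 0.786%, however, against 0.298% in that library as a whole, and its unlabelled input 1.01%, against 0.289%. With the unlabelled share subtracted the value turned to -0.16 (adjusted p = 0.564), and with at least 2 conversions required it turned to -0.70 (adjusted p = 0.0377). It was 0.18 (adjusted p = 0.369) in experiment 1 alone, and the call was also lost without any 1 lysate of experiment 2, at adjusted p from 0.0524 to 0.0621. The direction of Txnrd1 against the median gene thus depended on how conversions were counted.

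None of the 9 neighbouring pairs in the order of labelling passed (exact two-sided sign-flip test over 8 lysates, adjusted over the 9 pairs). The nearest were Txnrd1 over Gpx1, by 0.72 ± 0.50 in 7 of 8 lysates, and Txn1 over Prdx3, by 0.46 ± 0.50 in 7 of 8 lysates, each at an exact p of 0.0156 and an adjusted p of 0.0703. With 8 lysates the smallest exact p is 0.0078.

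**Figure D5:**
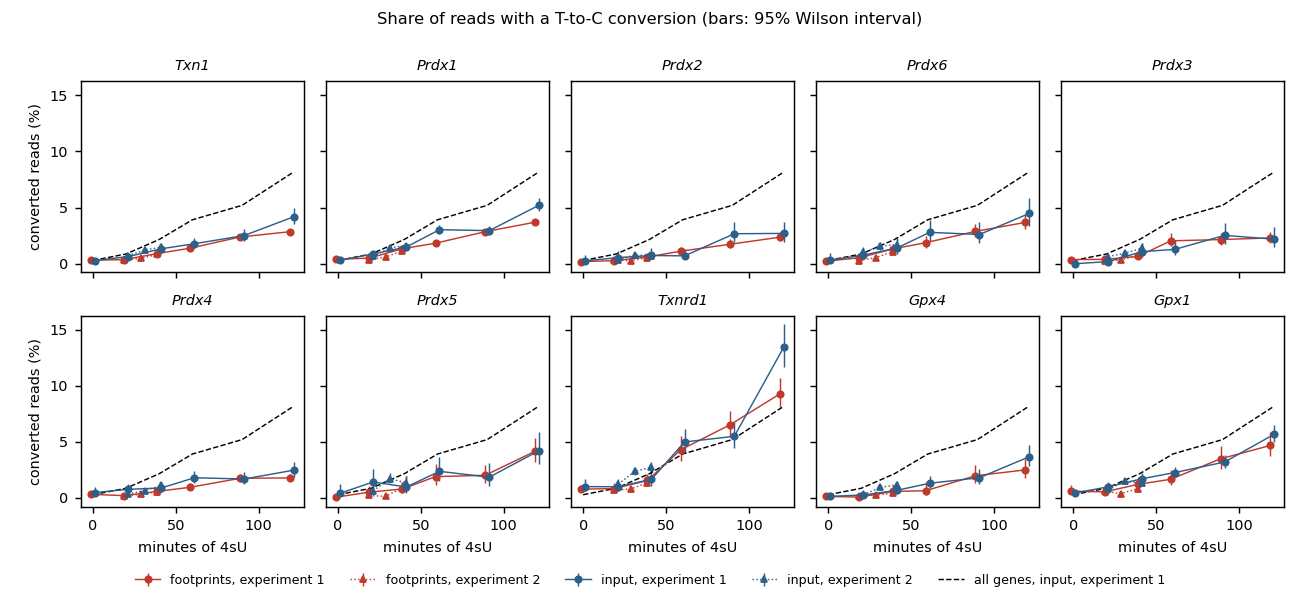
Share of reads with at least 1 T-to-C conversion by minutes of 4sU in the 10 genes (red footprints, blue input, circles with solid lines for experiment 1, triangles with dotted lines for experiment 2, bars for the 95% Wilson interval), with the share of all input reads of experiment 1 as a dashed line. From 60 min on, the input points of 9 genes lie below the dashed line, and Txnrd1 reaches 13.5% at 120 min.

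The last comparison asks whether the labelled share of an mRNA is the same on ribosomes as in the cytoplasm. It was lower in footprints for 8 of the 10 genes and higher for none (edgeR fit of converted and unconverted reads over 16 labelled libraries, adjusted over 8276 genes), where 59.4% of all genes were lower and 0.145% higher. The median log2 odds ratio of the 10 was -0.66, against -0.79 over all genes. Txn1 had 2.85% converted reads in footprints and 4.18% in input at 120 min, and over all times its log2 odds ratio was -0.73 (SE 0.18, adjusted p = 4.3e-04).

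Prdx1 had 3.70% converted reads in footprints and 5.21% in input at 120 min, and 0.62% and 1.42% at 30 min of experiment 2. It was lower in footprints in 8 of 8 lysates, as was Txn1, with a log2 odds ratio of -0.62 (SE 0.17, adjusted p = 0.0015). Prdx5 stood at -0.88 (SE 0.28, adjusted p = 0.0053), Gpx4 at -0.85 (SE 0.28, adjusted p = 0.0064), Prdx4 at -0.80 (SE 0.22, adjusted p = 0.0015) and Prdx6 at -0.69 (SE 0.23, adjusted p = 0.0079). Gpx1 stood at -0.59 (SE 0.22, adjusted p = 0.0165) and Txnrd1 at -0.57 (SE 0.22, adjusted p = 0.0214). Prdx3 (-0.50, adjusted p = 0.0641) and Prdx2 (-0.45, adjusted p = 0.0898) did not pass.

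The calls depended on the experiment and on single lysates, and the shares of all genes in the fits without them were not counted. In experiment 1 alone 3 genes passed, and Prdx3 was then at 0.05 (adjusted p = 0.906). The calls of Prdx5 (adjusted p = 0.129) and Gpx1 (0.109) were lost without the 30 min lysate, which left 5 genes, that of Prdx6 (0.0667) without the 20 min lysate of experiment 2, and that of Txnrd1 without any lysate of experiment 2 (0.0532 to 0.0841).

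The shift was shared with the transcriptome. The median gene had a log2 odds ratio between -1.65 (30 min of experiment 2) and -0.23 (90 min of experiment 1) in the 8 labelled lysates. After subtraction of this median in each lysate, none of the 10 genes passed (limma, adjusted over 8276 genes), where 2.72% of all genes were higher and 2.83% lower. At an unadjusted p under 0.05 there were 1671 genes, with Prdx1 (0.21, SE 0.10) and Txnrd1 (0.29, SE 0.13) among them, and the values of the 10 ran from -0.11 in Prdx5 to 0.43 in Prdx3.

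Other genes of the same pathways were compared by list. Over all genes tested, 35.2% had more footprints than input and 40.3% fewer, with a median log2 ratio of -0.04, and in labelling 35.2% were above and 35.1% below, and the counts of each list stand against these shares. Of 13 other genes of the thioredoxin system, 6 had more footprints than input and 2 fewer, with a median log2 ratio of 0.15. Txnip, which binds and inhibits thioredoxin, stood at 0.87 (SE 0.10), the methionine sulfoxide reductases Msrb1 at 0.65 (SE 0.08) and Msra at 0.59 (SE 0.11), and the mitochondrial thioredoxin Txn2 at 1.28 (SE 0.27). Txnip (4.54, SE 0.10) and the sestrins Sesn2 (2.23, SE 0.30) and Sesn1 (0.88, SE 0.16) were labelled more than the median gene in input, unlike Txn1, and 2 of the 6 genes tested were labelled less.

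Of 15 tested genes of glutathione synthesis, glutaredoxins and transferases, 9 had more footprints than input and 3 fewer, with a median of 0.58. Glrx2 stood at 1.12 (SE 0.08), Slc3a2, the heavy chain of the cystine carrier, at 1.09 (SE 0.08), Gclm, a subunit of the enzyme that begins glutathione synthesis, at 1.14 (SE 0.09), and the transferase Gstm1 at 1.81 (SE 0.17). In labelling, 2 of 9 tested genes were above and 4 below the median gene, with Slc3a2 at 1.94 (SE 0.11), Glrx3 at -1.64 (SE 0.20) and Glrx5 at -0.84 (SE 0.21).

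Of 11 tested genes of NRF2, the transcription factor that drives many antioxidant genes, its partners and NADPH supply, 9 had more footprints than input and 2 fewer, with a median of 0.54. The pentose phosphate enzymes Pgd (3.30, SE 0.24), G6pdx (1.18, SE 0.08) and Tkt (0.58, SE 0.06) were all higher. Input of Pgd varied widely over libraries, at 93.8 ± 50.1 CPM (SD, n = 9), against 745 ± 70.7 CPM in footprints. In labelling 5 of 10 were above and 5 below, with the regulators Bach1 (2.25, SE 0.19) and Nfe2l2 (1.64, SE 0.17), which encodes NRF2, above and Tkt (-1.22, SE 0.14) below.

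Of 10 genes of superoxide and hydrogen peroxide handling, 9 had more footprints than input and none fewer, with a median of 0.44. Sod1, the cytosolic superoxide dismutase, stood at 1.70 (SE 0.09), and the oxidase subunits Cybb at 0.97 (SE 0.07) and Rac2 at 0.85 (SE 0.07). All 10 were labelled less than the median gene, with a median of -1.30, among them Park7 (-1.73, SE 0.20) and Cyba (-1.70, SE 0.23).

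Of 10 tested selenoproteins besides those of the thioredoxin and peroxidase lists, 2 had more footprints than input and 6 fewer, with a median of -0.77. Sephs2 and Selenot (Selt in the files), both described above, were among those below, and Selenos (Vimp in the files) was above, at 0.58 (SE 0.06). In labelling 1 of 6 was above the median gene, namely Sephs2 at 1.05 (SE 0.12), and 2 were below, namely Selenof at -1.31 (SE 0.21) and Selenot at -0.80 (SE 0.27). Of 5 genes that insert selenocysteine, 1 had more footprints and 4 fewer, with Trnau1ap at -0.97 (SE 0.09), Pstk at -0.69 (SE 0.11) and Secisbp2 at -0.60 (SE 0.07). In labelling Sepsecs (0.86, SE 0.21) was above, and Eefsec (-0.76, SE 0.23) and Pstk (-0.65, SE 0.24) were below.

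The genes outside the 10 whose levels moved most alike over the 18 libraries, after subtraction of the mean of each material, were found among 8831 genes that averaged 100 reads or more. Prdx4 was most like Ppp1ca (Pearson r = 0.99), Gpx4 like Ndufb8 (0.98), Prdx3 like Adk (0.98), Prdx5 like Mea1 (0.98), Gpx1 like Dctpp1 (0.98), Prdx6 like Lgmn (0.98), Txn1 like Cuedc2 (0.96) and Prdx1 like Asns (0.95). Txnrd1 was least like any other gene, with Mad2l2 closest at 0.79. Within the 10, Prdx3 and Prdx4 were the most alike pair (0.97), and the closest member to Txnrd1 was Prdx1, at 0.50. These libraries share scaling and the difference between experiments, which enters each r.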

How the data were processed

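The values used were the authors' deposited counts, raw reads per gene and library, split by the T positions (0 to 20) and the T-to-C conversions (0 to 3) of a read, a meaning inferred from the column headings. Alignment to mm10 was done with Bowtie 0.12.8, per the submitters' processing notes. How reads were assigned to genes (program, annotation, strand, region) the sources used here do not say. By the labels' protocols, fragments of 25 to 35 nt were selected, ribosomal RNA was depleted, and a 4sU spike-in was added, whose counts were not used here.

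Totals were tested with edgeR 4.0.16 (quasi-likelihood, TMM, filterByExpr, R 4.3.3), with labelling time as a term in footprints against input. Labelling was the log2 odds of conversion (pseudocount 0.5) minus the library median, tested with limma 3.58.1. For conversion between the materials, edgeR's methylation design was used. The SE given with an edgeR value is its absolute log2 value divided by the square root of its F statistic. With limma it is the moderated standard error. Genes entered these fits with 50 or more reads per library on average and 50 or more converted reads. Calls were two-sided, at a Benjamini-Hochberg adjusted p under 0.05 over all genes tested. Fits were tested on simulated data. In that test limma's variance trend, first run over the mean log value as planned, missed changed genes in relative conversion, so the trend was run over converted reads instead. That change was made after the first fits to the real data had been seen, and the first version is kept as an alternative.

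The 10 genes and all lists were chosen with earlier results of these data known. All 10 entered every comparison. For the change of the ratio with hours, conversion relative to the median gene and the order of labelling, values are given for some of them only. Of each other list the 3 genes with the smallest adjusted p past the call and the gene with the largest value are named, in footprints against input and in labelling, and for each of the 10 the most similar gene over the libraries is named. The results of 2 genes that these rules pick are not reported here. The genes of the selenoprotein description, and its split at 50%, were chosen after the ratios had been seen.

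Footprints and input of 1 lysate are paired by the protocol in the labels: their deviations correlated at 0.115 to 0.732 across genes, and in 3 of 9 lysates the best partner was the lysate's own. Experiment numbers come from the titles, and the difference between experiments at 20 min correlated with that at 40 min at 0.77 in footprints and 0.83 in input. Alternatives were DESeq2 1.42.0 size factors and Wald test, no filter, a replicate block for experiment or for lysate, each experiment alone, each lysate left out, a pseudocount of 2, at least 200 reads, conversions per T position, at least 2 conversions, and subtraction of the unlabelled share. The test of the difference between experiments was added after seeing the data. Intervals on shares are 95% Wilson intervals and cover counting error only.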

Additional observations from a re-analysis of the deposited data

Results flagged for a closer look

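Between experiments, 5 genes differed in the footprint to input ratio at 20 and 40 min by the test of that difference itself. On the log2 scale, experiment 2 minus experiment 1, Gpx1 differed by 0.81, Prdx4 by 0.65, Gpx4 by 0.65, Prdx5 by 0.59 and Prdx6 by 0.46.

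In conversion of footprints against input after subtraction of the median gene, 1 lysate stood far from the other 7 in Prdx5, at -1.90 in the 30 min lysate of experiment 2, and in Prdx6, at -0.74 in the 20 min lysate of experiment 2. The Prdx5 value rests on 7 converted footprint reads and 49 converted input reads, and the Prdx6 value on 32 and 55. These were 2 of 30 groups of lysates examined, and chance alone marks about 5% of groups.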

How the results depend on the processing

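Shares of all genes were counted for the main fits only, so counts under an alternative have no such share beside them. The ratio of footprints to input kept its 6 higher and 4 lower genes in direction under each alternative run, except Prdx5, at 0.053 in experiment 2 alone. Of neighbouring pairs in its order, 7 to 9 differed with 1 lysate left out and 8 with library totals. A replicate block for experiment or for lysate changed none of its calls. The footprint slope called 1 gene with no low-count filter, and 0 to 8 with 1 lysate left out. The input slope called 2 genes by DESeq2's Wald test, 0 with no filter and 3 with experiment as a replicate block, and 0 to 1 with 1 lysate left out.

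The change of the ratio with hours was called in none of the 10 genes under any alternative run and changed sign in several. With experiment as a replicate block it was 0.033 in Prdx1, 0.043 in Prdx3, 0.0092 in Prdx4, 0.13 in Prdx5, 0.062 in Prdx6 and 0.0205 in Gpx4. In experiment 1 alone it was 0.045 in Prdx1, 0.0601 in Prdx3, 0.031 in Prdx4, 0.13 in Prdx5, 0.082 in Prdx6 and 0.0201 in Gpx4. Prdx2 stood at -0.0026 with DESeq2 size factors and at -0.0031 by DESeq2's Wald test. With 1 lysate left out it ran from -0.10 to 0.0013 in Prdx1, -0.043 to 0.049 in Prdx2, -0.0599 to 0.013 in Prdx3, -0.15 to 0.054 in Prdx5, -0.12 to 0.022 in Prdx6, -0.092 to 0.064 in Txn1 and -0.083 to 0.29 in Gpx1.

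Labelling called 0 genes above and 8 below the median gene with a pseudocount of 2, and 0 above with at least 2 conversions, with the unlabelled share subtracted and in experiment 1 alone. With 1 lysate left out it called 0 to 1 above and 5 to 8 below. Txnrd1 turned to -0.70 with at least 2 conversions and to -0.16 with the unlabelled share subtracted. Conversion in footprints was lower in 4 genes with at least 2 conversions, in 3 in experiment 1 alone, where Prdx3 stood at 0.045, and in 5 to 10 with 1 lysate left out. The variance trend over the mean log value changed none of the calls of the 10 genes.

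Relative to the median gene, conversion was called in none of the 10 under any alternative. With at least 2 conversions it turned to -0.15 in Prdx1, -0.33 in Prdx3, 0.18 in Prdx5, -0.34 in Prdx6, -0.42 in Txn1 and 0.56 in Gpx4. With the unlabelled share subtracted it turned to -0.064 in Prdx1, -0.43 in Prdx3, 0.044 in Prdx4, 0.39 in Prdx5, -0.18 in Txn1 and -0.12 in Gpx1. Per T position it was 0.022 in Prdx4 and 0.012 in Gpx4, with the replicate block 0.055 in Prdx4, in experiment 1 alone 0.17 in Prdx5 and with a pseudocount of 2 0.13 in Gpx4. With 1 lysate left out it ran from -0.10 to 0.14 in Prdx4, -0.20 to 0.14 in Prdx5 and -0.10 to 0.051 in Gpx4. Why these values moved was not tested.

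Depth limits the conversion values: Gpx4, Prdx2, Prdx3, Prdx4, Prdx5 and Prdx6 had fewer than 100 converted reads in every input library. The part of depth in the changes of sign above was not tested. Experiment 2 has only 20 to 40 min, so slopes over both experiments rest on experiment 1 beyond 40 min, where each time has 1 lysate.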
